A study of Mus musculus with 6 samples.

Results

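The transcripts of the mitochondrial genome were described in a fluoride-resistant and a wild-type line of mouse osteoblast-like cells. The 37 members are the rows of the deposited gene table whose gene name begins with mt-, out of 54433 rows. They comprise 13 mRNAs, 2 rRNAs and 22 tRNAs, each listed by its Ensembl gene ID. The mitochondrial genome is a small circle that encodes subunits of the respiratory chain and of ATP synthase, together with the rRNAs and tRNAs that translate them inside the organelle. Its strands are copied by the polymerase Polrmt into long precursors, which are cut mostly at the tRNAs that lie between the other genes, and most of the resulting mRNAs then receive a poly(A) tail. Respiratory complexes I, III, IV and V are built from these few subunits and many more that are made from nuclear genes, while complex II is made from nuclear genes alone.

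MC3T3-E1 is a mouse osteoblast-like cell line. The FR group holds 3 libraries (FR1 to FR3) of MC3T3-E1 cells made resistant to 30 ppm F- (fluoride) by growth in fluoride, for which the treatment text gives a gradient of 10 ppm F- and the sample label a gradient of 30 ppm F-. The WT group holds 3 libraries (WT1 to WT3) of wild-type MC3T3-E1 cells in DMEM, a standard culture medium, labelled as control. The resistant state and the exposure to fluoride came together in FR and cannot be told apart, and the labels speak of clones without giving their number. The series title names fluoride-tolerant mice, whereas the labels describe cultured cells. The labels do not state whether replicate libraries were grown as separate cultures, so the p-values below measure a spread that may be technical.

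Libraries were made from poly(A)-selected RNA with random hexamers and no stated strand, and totals were 19246119, 25185697 and 21201932 counts in FR1 to FR3 and 27140662, 25700497 and 25798631 counts in WT1 to WT3, so that every FR library was smaller than every WT library. The line was checked against 7 osteoblast markers, of which 4 (Sp7, Alpl, Bglap and Ibsp) stayed below 1 CPM (counts-per-million) in all 6 libraries and Ibsp was listed at 0 throughout. The summed level of these 7 markers lay between 3777 and 3808 CPM in FR and between 14217 and 14560.4 CPM in WT, mostly from Col1a1 and Col1a2, while Runx2, the lineage's early transcription factor, averaged 57.2 CPM in FR and 69.7 CPM in WT. Of 5 macrophage markers, Csf1r averaged 7.13 CPM in FR and 0.596 CPM in WT, and Cd68 averaged 2.25 CPM in FR and 0.467 CPM in WT. Ptprc averaged 0.174 CPM in FR and 0.0388 CPM in WT. Lyz2 went the other way, at 1.54 CPM in FR and 6.14 CPM in WT, and Adgre1 had no count in FR and 1 count in WT. The summed list spanned 10.3 to 12.1 CPM in FR and 6.57 to 8.0 CPM in WT. Each gene of the endothelial, epithelial, skeletal muscle and adipocyte lists stayed below 1 CPM. The part of depth and of these markers in the differences below was not tested.

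Several members have near-identical annotated copies in the nuclear genome, and how the counts were split between a member and its copy had to be settled before any level was read. Copies were sought among the GENCODE vM21 transcripts (GRCm38), from which all sequences printed here were read, as alignments of at least 100 bases at 95% identity or more, and 11 were found for 9 of the members, all annotated as pseudogenes. Of these, 6 held over 1000 counts in the table, each on chromosome 1: Gm29216 (matching mt-Co1), Gm28661 (mt-Co2), Gm10925 (mt-Atp6), Gm28437 (mt-Co3), Gm28438 (mt-Nd3) and Gm10222 (mt-Nd4l). These 6 copies are identical to the member or differ from it at 1 aligned base, as the following pairs show. They are printed because a read within the aligned bases that misses the marked base matches both places. Capitals mark the base that differs or, for mt-Co3, the last base that the copy lacks.
mt-Co1: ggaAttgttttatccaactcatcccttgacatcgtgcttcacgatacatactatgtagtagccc
Gm29216: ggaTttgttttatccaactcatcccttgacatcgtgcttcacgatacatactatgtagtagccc
mt-Nd3: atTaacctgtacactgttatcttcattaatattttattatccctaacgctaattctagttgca
Gm28438: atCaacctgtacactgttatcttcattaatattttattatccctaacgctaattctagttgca
mt-Co3: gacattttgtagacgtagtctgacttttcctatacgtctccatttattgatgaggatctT
Gm28437: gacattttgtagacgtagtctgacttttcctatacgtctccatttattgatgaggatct
The mt-Co1 stretch covers bases 1063 to 1126 of the transcript, where the only mismatch to Gm29216 over 483 aligned bases is A1066T, written as the member's base, its position counted from 1 at the member's first base, and the copy's base. The mt-Nd3 stretch covers bases 1 to 63, with T3C as the only mismatch over 345 aligned bases. For mt-Co2, mt-Atp6 and mt-Nd4l no base differed over 681, 678 and 294 aligned bases, and a read from these stretches matches both places equally well.

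For 5 members most of the matching counts stood on the copy's row. The mt-Co2 row held 1.81%, 3.32% and 1.33% of the counts of the row and its copies together in FR1 to FR3, and 3.48%, 3.21% and 2.39% in WT1 to WT3. The mt-Atp6 row held between 2.65% and 4.15% in FR and between 3.67% and 4.69% in WT, and the mt-Nd4l row between 8.68% and 10.8% in FR and between 7.05% and 11.5% in WT. For mt-Nd3 the share was 17.7% to 21.1% in FR and 17.0% to 21.7% in WT. The split therefore overlapped between the groups for these 4 members. The mt-Co3 row was the exception, with 8.72%, 8.12% and 7.29% in FR and 3.48%, 1.83% and 6.25% in WT, so that every FR library stood above every WT library. The mt-Co1 row kept 94.9% to 95.6% of its counts in all 6 libraries; Gm29216 matches only its last 483 bases. The copies together took 1.59%, 1.72% and 1.65% of all counts in FR and 1.17%, 1.2% and 1.16% in WT. Values are given below as deposited and, for these 6 members, also with the copies' counts added, which does not depend on the split but would count any RNA made from the copies themselves.

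**Figure D1:**
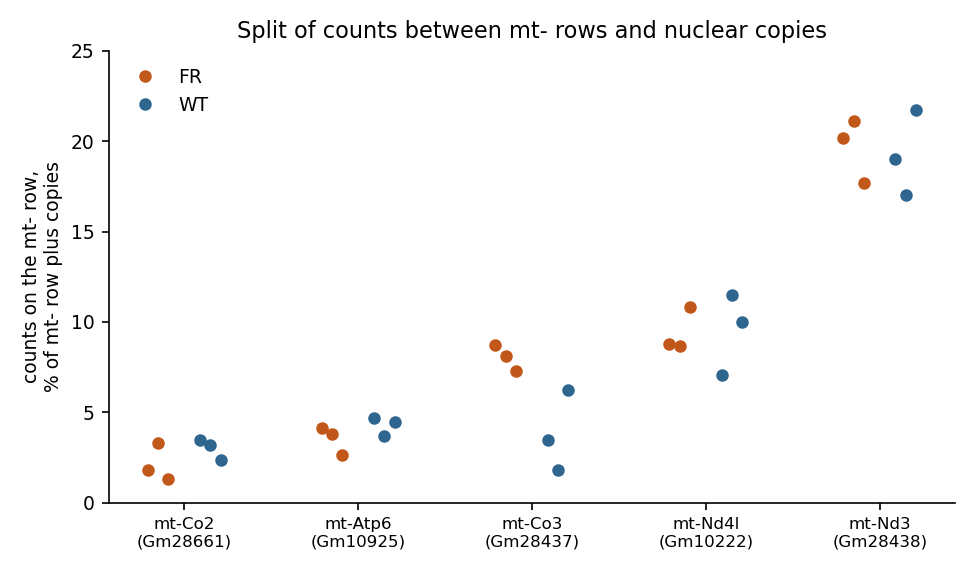
Share of the counts of each named row and its nuclear copies together that stood on the named row, in percent (y axis), for 5 members with their most counted copy in brackets; points are single libraries, FR left and WT right. The mt-Co2 points all lie between 1.33% and 3.48%, and for mt-Co3 the FR points (7.29% to 8.72%) lie above the WT points (1.83% to 6.25%).

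The mitochondrial genome gave a larger share of the counts in FR than in WT. Its 37 rows held 3.39%, 3.61% and 3.35% of the counts in FR1 to FR3 and 2.64%, 2.64% and 2.62% in WT1 to WT3, with means of 3.45% ± 0.14 in FR and 2.63% ± 0.01 in WT (SD, n = 3 each), a ratio of 1.31. With the copies added the share was 4.98%, 5.32% and 5.00% in FR and 3.81%, 3.85% and 3.78% in WT, a ratio of 1.34. The groups did not overlap in either count, and the exact two-sided permutation test gave p = 0.1, the smallest that 3 against 3 libraries allow (0.133 after Benjamini-Hochberg adjustment over 8 classes of members). In a bulk sample, more mitochondrial RNA per cell and more cells rich in it cannot be told apart, nor can RNA abundance and capture by poly(A) tail.

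Of the 13 mRNAs as deposited, 7 were higher in FR, 0 were lower and 6 did not pass edgeR's quasi-likelihood test at an adjusted p of 0.05, on a background of 34.6% of 14889 tested genes called higher and 35.5% called lower (70.1% in either direction). All 13 log2 fold changes were above 0, so 0 were lower at an unadjusted p under 0.05 as well, and 0 were lower with DESeq2 or limma-voom. The 7 of 13 called higher lie above the background share of higher calls and below that of calls in either direction, and neither gap was tested. With the copies added, 9 were higher, 0 lower and 4 not called, on a background of 34.7% called higher. The median log2 fold change of the 13 was 0.27 as deposited and 0.30 with the copies added, against 0.00 over all tested genes. The libraries of the groups did not overlap in CPM for 8 of the 13 mRNAs as deposited and for 10 with the copies added, where 72.4% of all tested genes had groups that did not overlap, a share near that of the members. When counts were scaled to the mitochondrial mRNAs themselves in place of all genes, most of these directions turned, as given with the makeup of the pool below.

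**Figure D2:**
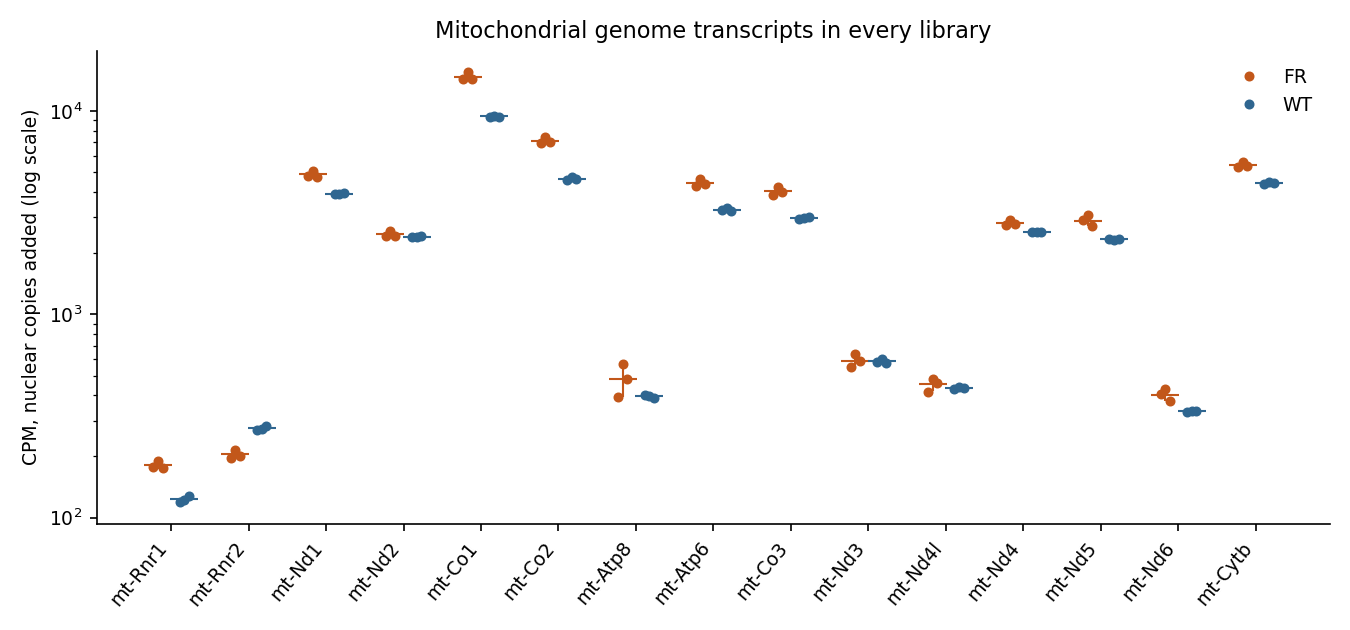
Level of the 2 rRNAs and 13 mRNAs in every library in CPM with nuclear copies added (y axis, log scale), in their order on the mitochondrial genome; points are libraries, horizontal lines group means, vertical lines the SD of each group, FR left and WT right. The mt-Co1 points run from 14308 to 15489 CPM in FR and from 9347 to 9463 CPM in WT, while the mt-Rnr2 points lie lower in FR than in WT; scaled to the mitochondrial mRNA pool, 8 of the 13 mRNAs are lower in FR.

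**Figure D3:**
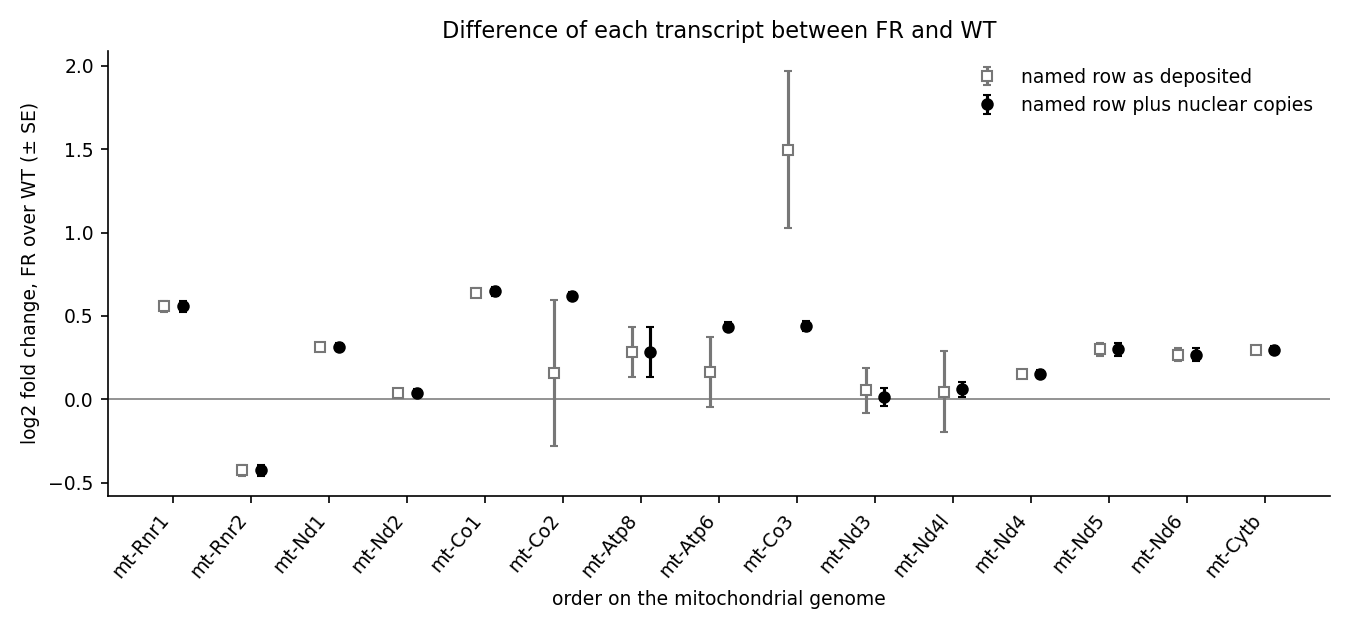
Log2 fold change of FR over WT with its SE (y axis) for the same 15 transcripts, as deposited (open squares) and with nuclear copies added (filled circles). The circles lie between 0.01 for mt-Nd3 and 0.65 for mt-Co1 among the mRNAs, and the square of mt-Co3 at 1.5 and its circle at 0.44 stand apart; scaled to the mitochondrial mRNA pool, only mt-Co1 and mt-Co2 of the mRNA circles stay above 0 past the test.

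The mRNAs of complex IV, cytochrome c oxidase, which passes electrons to oxygen, made the largest ratio between the groups among the 4 complexes. Together they held 1.45% ± 0.07 of the counts in FR and 0.925% ± 0.004 in WT as deposited (ratio 1.56), and 2.58% ± 0.10 in FR and 1.70% ± 0.02 in WT with the copies added (ratio 1.52). mt-Co1 (ENSMUSG00000064351) encodes the catalytic subunit that holds the haem and copper centre where oxygen is reduced. It stood at 13672, 14701 and 13624 CPM in FR1 to FR3, and at 8941, 9047.5 and 8964 CPM in WT1 to WT3. Every FR library was above every WT library, and the log2 fold change was 0.64 ± 0.03 (SE, adjusted p = 4.64e-16), a fold of 1.56. With Gm29216 added it was 0.65 ± 0.03.

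mt-Co2 (ENSMUSG00000064354) encodes the subunit that takes electrons from cytochrome c. Its own row gave 125.5, 247 and 92.9 CPM in FR and 159, 151 and 111 CPM in WT, and FR1 and FR3 lay on both sides of the lowest WT library. That row did not pass the test (log2 fold change 0.16 ± 0.44, adjusted p = 0.774), and it changed sign without FR2. With the copies added, mt-Co2 stood at 6942, 7434 and 7011 CPM in FR and at 4568, 4706.5 and 4633 CPM in WT. Here all FR libraries were above all WT libraries, with a log2 fold change of 0.62 ± 0.03 (adjusted p = 1.87e-18).

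mt-Co3 (ENSMUSG00000064358) encodes the third large core subunit. Its own row gave 337, 345 and 291 CPM in FR and 102, 54.9 and 188 CPM in WT. The WT libraries spread more widely than the FR libraries, and the row was called higher at a log2 fold change of 1.5 ± 0.47 (adjusted p = 0.0452). That call was lost, at adjusted p between 0.0551 and 0.138, when any library other than WT3 was left out, and without WT3 the adjusted p was 0.0114. With Gm28437 added, mt-Co3 stood at 3863, 4249 and 3995 CPM in FR and at 2933, 2991 and 3011 CPM in WT. The log2 fold change was then 0.44 ± 0.03 (adjusted p = 1.33e-11), which is smaller by over 1 log2 unit than on the row alone, and the groups still did not overlap.

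Complex I, the NADH dehydrogenase through which electrons enter the chain, has 7 subunits encoded here, all in the proton-pumping membrane arm. Of these, 4 were higher in FR (mt-Nd1, mt-Nd4, mt-Nd5 and mt-Nd6), 0 were lower and 3 did not pass (mt-Nd2, mt-Nd3 and mt-Nd4l), with or without the copies added. The background as deposited was 34.6% of all tested genes called higher and 35.5% called lower (70.1% in either direction). All 7 lay below 0 when scaled to the mitochondrial mRNA pool. Their summed share of counts was 1.36% ± 0.05 in FR and 1.17% ± 0.004 in WT as deposited (ratio 1.16).

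mt-Nd1 (ENSMUSG00000064341), which sits where the membrane arm meets the quinone site, had 4797, 5075 and 4736 CPM in FR and 3913.5, 3915 and 3928 CPM in WT. The WT libraries lay close together and all below FR, at a log2 fold change of 0.31 ± 0.02 (adjusted p = 1.85e-12). mt-Nd2 (ENSMUSG00000064345), an antiporter-like pump subunit, had 2421, 2563.5 and 2432 CPM in FR and 2411, 2395.5 and 2413.5 CPM in WT. The groups did not overlap, though FR1 stood just above WT3, and the log2 fold change of 0.04 ± 0.02 did not pass (adjusted p = 0.141).

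mt-Nd4 (ENSMUSG00000064363) and mt-Nd5 (ENSMUSG00000064367) encode further antiporter-like subunits. mt-Nd4 had 2762, 2895 and 2787.5 CPM in FR and 2527, 2543 and 2537 CPM in WT, a log2 fold change of 0.15 ± 0.02 (adjusted p = 8.61e-07). mt-Nd5 had 2894, 3061 and 2705 CPM in FR and 2353.5, 2323 and 2358 CPM in WT, a log2 fold change of 0.30 ± 0.04 (adjusted p = 1.09e-04). For both genes every FR library was above every WT library, and the difference of mt-Nd4 was the smallest of those called. The copy Gm28439, identical to mt-Nd4 over 876 bases, was listed at 0 in all 6 libraries.

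mt-Nd6 (ENSMUSG00000064368) is the only mRNA read from the other strand of the circle, together with 8 of the tRNAs. It had 403, 430 and 375 CPM in FR and 332, 336 and 336 CPM in WT, with no overlap and a log2 fold change of 0.27 ± 0.04 (adjusted p = 1.00e-04). Since no strand was stated for the libraries, its reads and those of antisense RNA from the opposite precursor cannot be told apart.

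mt-Nd3 (ENSMUSG00000064360) and mt-Nd4l (ENSMUSG00000065947) encode small subunits of the membrane arm, and neither passed the test on either count. With Gm28438 added, mt-Nd3 had 549, 636 and 592 CPM in FR and 581.5, 604 and 575 CPM in WT, and FR1 was the lowest and FR2 the highest of all 6 libraries. Its log2 fold change was 0.01 ± 0.05 (adjusted p = 0.835), and on its own row, at 111, 134 and 105 CPM in FR and 110.4, 103 and 125 CPM in WT, it was 0.05 ± 0.13 (adjusted p = 0.747). With Gm10222 added, mt-Nd4l had 417, 480 and 461 CPM in FR and 431, 439 and 433 CPM in WT, again with FR1 below all WT libraries. Its log2 fold change was 0.06 ± 0.05 (adjusted p = 0.269). The mt-Nd4l row alone gave 36.6, 41.6 and 49.8 CPM in FR and 30.4, 50.7 and 43.4 CPM in WT, a log2 fold change of 0.05 ± 0.24 (adjusted p = 0.881). The reading frames of mt-Nd4l and mt-Nd4 share 7 bases, shown in capitals at the end of mt-Nd4l because a read across them can be assigned to either gene.
mt-Nd4l: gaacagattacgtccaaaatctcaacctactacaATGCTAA

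Complex III, which passes electrons on to cytochrome c, has mt-Cytb (ENSMUSG00000064370) as its only mitochondrially encoded subunit. mt-Cytb holds the haems of the quinone sites. It had 5324, 5625 and 5345 CPM in FR and 4383, 4481 and 4414 CPM in WT. All FR libraries were above all WT libraries, with a log2 fold change of 0.30 ± 0.02 (adjusted p = 2.60e-12), a fold of 1.23.

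Complex V, the ATP synthase, has 2 subunits encoded here, both in its membrane part, and their reading frames share 43 bases. mt-Atp6 (ENSMUSG00000064357) forms the proton channel beside the rotor, and mt-Atp8 (ENSMUSG00000064356) is a short subunit of the stator. They are carried on a joint mRNA, and the shared bases are shown in capitals at the end of mt-Atp8, starting with the ATG of mt-Atp6 and ending with the TAA of mt-Atp8.
mt-Atp8: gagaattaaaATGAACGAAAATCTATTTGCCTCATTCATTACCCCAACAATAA
The mt-Atp6 row alone gave 178, 176 and 116 CPM in FR and 152, 122 and 144 CPM in WT, with FR3 the lowest of all, and did not pass (log2 fold change 0.17 ± 0.21, adjusted p = 0.535). With Gm10925 added it gave 4275, 4612 and 4368 CPM in FR and 3241, 3327 and 3232 CPM in WT. The groups then did not overlap, with a log2 fold change of 0.44 ± 0.03 (adjusted p = 2.58e-14). mt-Atp8 had 391, 566 and 483 CPM in FR and 400.5, 398 and 386.5 CPM in WT. FR1 lay among the WT libraries, and the log2 fold change of 0.28 ± 0.15 did not pass (adjusted p = 0.165); without FR1 it was 0.40 ± 0.08 (adjusted p = 0.0129) and without FR2 it was 0.14 ± 0.11 (adjusted p = 0.337). Counts of mt-Atp8 were 9.15%, 12.3% and 11.1% of those of mt-Atp6 with its copy in FR and 12.4%, 12% and 12% in WT, and these overlapped (exact two-sided permutation p = 0.3, n = 3 each).

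Within the pool of mitochondrial mRNAs the members did not differ between the groups by the same factor. With the copies added, mt-Co1 made up 29.0% ± 0.1 of the 13 mRNAs' counts in FR and 24.95% ± 0.03 in WT, and mt-Co2 14.1% ± 0.1 in FR and 12.3% ± 0.1 in WT. In turn mt-Nd2 made up 4.88% ± 0.04 in FR and 6.39% ± 0.07 in WT, mt-Nd4 5.55% ± 0.09 in FR and 6.73% ± 0.02 in WT, and mt-Cytb 10.7% ± 0.1 in FR and 11.75% ± 0.06 in WT (SD, n = 3 each). The groups did not overlap for these 5 mRNAs, nor for mt-Nd1, mt-Nd3, mt-Nd4l, mt-Nd5 and mt-Nd6, whose shares were smaller in FR. The shares of mt-Atp6, mt-Co3 and mt-Atp8 overlapped.

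The same shares were tested by scaling each library to the summed mitochondrial mRNAs. This moved the median log2 fold change over all tested genes to -0.40 as deposited and to -0.43 with the copies added. The scaling holds the pool fixed, so larger shares of some members lower those of others. It adds no separate support to the shares above. On this scale, with the copies added, mt-Co1 (0.22 ± 0.03) and mt-Co2 (0.19 ± 0.04) were higher in FR than the pool, on a background of 10.8% of all genes called higher and 67% called lower. mt-Nd1, mt-Nd2, mt-Nd3, mt-Nd4l, mt-Nd4, mt-Nd5, mt-Nd6 and mt-Cytb, 8 in all, were lower, between -0.42 for mt-Nd3 and -0.12 for mt-Nd1. mt-Atp6 and mt-Co3, both at 0.01 ± 0.04, and mt-Atp8 at -0.15 ± 0.12 did not pass. As deposited, mt-Co1 alone was higher than the pool and 7 were lower, on a background of 11.5% called higher and 65% called lower. The ratio of mt-Co1 with its copies to mt-Nd2 needs no scaling and was 5.91, 6.04 and 5.90 in FR and 3.88, 3.95 and 3.89 in WT. This pair was chosen after the values were seen, and its exact two-sided permutation p of 0.1 is the smallest possible.

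**Figure D4:**
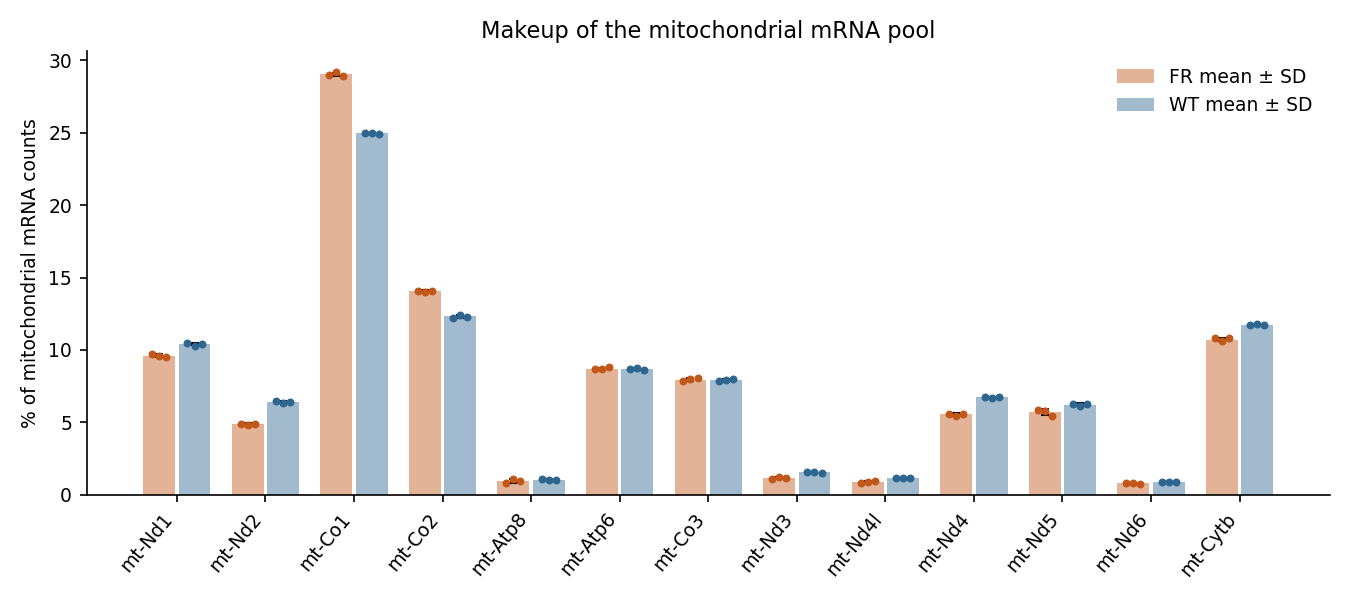
Share of each mRNA in the counts of all 13 mitochondrial mRNAs, nuclear copies added, in percent (y axis), in genome order; bars are group means with SD, points are libraries, FR left and WT right. mt-Co1 (29.0% in FR, 24.95% in WT) and mt-Co2 take a larger share in FR, 8 of the others a smaller one, and the bars of mt-Atp6, mt-Co3 and mt-Atp8 overlap.

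Levels were compared between members only per kilobase of the deposited gene length, with the copies added. No allowance was made for fragment length, so short rows such as mt-Atp8 (204 bases), mt-Nd4l (297 bases) and mt-Nd3 (348 bases) may read too low. mt-Atp8 and mt-Atp6 lie on a joint mRNA, yet stood at 2354 and 6488 CPM per kilobase in FR. The order below is therefore one of counts per length, and the part of row length in it was not tested. In FR, mt-Co2 stood highest at 10422 ± 389 CPM per kilobase, followed by mt-Co1 at 9527 ± 432 and mt-Atp6 at 6488 ± 256 (SD, n = 3). In WT the same 3 mRNAs led, at 6777 ± 101.5, 6082 ± 38.6 and 4797 ± 77.2 CPM per kilobase. These neighbours differed beyond their SD in both groups. The next 3 were mt-Co3 (5147 ± 250), mt-Nd1 (5089 ± 189) and mt-Cytb (4748 ± 147) in FR, where mt-Co3 and mt-Nd1 overlapped within the SD and mt-Cytb stood just apart. In WT the order was mt-Nd1 (4095 ± 8.57), mt-Cytb (3869 ± 44.3) and mt-Co3 (3799 ± 51.5), and there only mt-Cytb and mt-Co3 overlapped. mt-Nd2, mt-Atp8, mt-Nd4 and mt-Nd3 followed in that order in both groups, between 2382 and 1701 CPM per kilobase in FR and between 2318.5 and 1686.5 in WT. In FR, mt-Atp8 (2354 ± 430) overlapped both mt-Nd2 and mt-Nd4, whereas in WT these 4 stood apart from each other. mt-Nd5 and mt-Nd4l exchanged places, with mt-Nd5 at 1583 ± 97.6 and mt-Nd4l at 1524 ± 109 in FR, within their spread, and at 1286 ± 10.3 and 1462 ± 14.8 in WT. mt-Nd6, the mRNA of the other strand, was the lowest mRNA at 776 ± 52.3 CPM per kilobase in FR and 645 ± 4.21 in WT. In these poly(A)-selected libraries its abundance and its capture by poly(A) tail cannot be told apart.

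The rRNAs went in opposite directions. mt-Rnr1 (ENSMUSG00000064337) encodes the rRNA of the small subunit of the mitochondrial ribosome and mt-Rnr2 (ENSMUSG00000064339) that of the large subunit. mt-Rnr1 had 178, 189.5 and 176 CPM in FR and 119, 123 and 127.5 CPM in WT, and was higher in FR by a log2 fold change of 0.56 ± 0.03 (edgeR, adjusted p = 1.11e-14). mt-Rnr2 had 196, 216 and 201.5 CPM in FR and 269, 273 and 283 CPM in WT, and was lower in FR by a log2 fold change of -0.43 ± 0.03 (adjusted p = 1.59e-11). Neither pair of groups overlapped, and scaled to the mitochondrial mRNA pool the signs stayed, at 0.16 ± 0.05 for mt-Rnr1 and -0.83 ± 0.04 for mt-Rnr2. The count of mt-Rnr1 was 0.906, 0.879 and 0.874 times that of mt-Rnr2 in FR and 0.444, 0.449 and 0.451 times in WT. This ratio was added after the values were seen, and its exact p of 0.1 is again the smallest possible. Summed, the rRNAs held 0.0385% ± 0.0016 of the counts in FR and 0.0399% ± 0.0009 in WT, and these overlapped (exact two-sided permutation p = 0.3, n = 3 each). Set against the mRNAs as deposited, rRNA counts were 1.12%, 1.13% and 1.14% in FR and 1.5%, 1.53% and 1.58% in WT.

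The rRNAs are the most abundant RNAs of mitochondria in total RNA, but their level per kilobase here was 190 ± 7.63 CPM for mt-Rnr1 and 129 ± 6.29 for mt-Rnr2 in FR, and 129 ± 4.29 and 174 ± 4.66 in WT, below every mRNA with the copies added. As deposited, the mt-Nd4l row stood at 144 CPM per kilobase in FR, below mt-Rnr1. In WT the deposited rows of mt-Nd4l (140) and mt-Co3 (147) stood below mt-Rnr2. Mitochondrial rRNAs carry short tails, and the libraries kept RNA that bound oligo(dT), so these values count the captured RNA. The last 60 bases of each are shown because added tails follow them, and adenines within the transcript can bind oligo(dT) as well. The longest run of A within the transcript is 5 bases in mt-Rnr1 and 7 bases in mt-Rnr2. Whether capture of the rRNAs differed between FR and WT was not tested.
mt-Rnr1: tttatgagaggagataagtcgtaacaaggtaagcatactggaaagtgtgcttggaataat
mt-Rnr2: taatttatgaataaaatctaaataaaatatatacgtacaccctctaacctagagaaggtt

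The tRNAs gave almost no counts and none of the 22 entered the test. Of these, 16 were listed at 0 in all 6 libraries, and the other 6 gave 20 counts in all. mt-Ts1 (ENSMUSG00000064352), a serine tRNA, was the only member of the class with a count in every library, with 1, 3 and 1 in FR and 6, 1 and 2 in WT. Its sequence of 69 bases is given because no other tRNA row had a count in every library. Like mt-Nd6, it is read from the other strand, as are mt-Tn, mt-Ty and mt-Te, and it lies next to mt-Co1. With no strand stated, its few reads and those of antisense RNA from the opposite precursor cannot be told apart.
mt-Ts1: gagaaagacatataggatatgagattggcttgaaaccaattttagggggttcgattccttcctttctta
mt-Tm, mt-Tn, mt-Tr, mt-Ty and mt-Te, tRNAs for methionine, asparagine, arginine, tyrosine and glutamic acid, had 1 or 2 counts in a single FR library and none in WT. All tRNAs together gave 2, 3 and 6 counts in FR and 6, 1 and 2 counts in WT, which overlapped. A row at 0 allows up to 3 counts, or 0.110 to 0.156 CPM depending on the library (counting error only). The tRNA rows are 59 to 75 bases long, which is shorter than the cDNA fragments that the protocol selected, and a difference in tRNA level was not detectable in these files.

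The mRNAs share features of sequence that the choice of members did not use. Reading frames opened with ATG in 9 of the 13, and with GTG in mt-Nd1, ATA in mt-Nd2, ATT in mt-Nd3 and ATC in mt-Nd5. In mt-Co3, mt-Nd4 and mt-Cytb, 3 in all, the row ends with the T of an incomplete stop codon, which the poly(A) tail completes. The G+C content of the mRNAs ran from 31.9% in mt-Atp8 to 41.1% in mt-Nd4l.

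The nuclear genes that make and handle mitochondrial RNA were read from lists, whose calls are set against the background of 34.6% higher and 35.5% lower. Of 11 transcription genes, 5 were higher, 1 lower and 5 not called (median log2 fold change 0.08). Polrmt, the polymerase, averaged 67.9 ± 2.0 CPM in FR and 48.2 ± 2.1 CPM in WT (SD, n = 3 each), a log2 fold change of 0.49 ± 0.04 (adjusted p = 3.64e-11). Tfam, which packages the genome and opens its promoters, averaged 79.8 ± 3.4 CPM in FR and 60.9 ± 1.8 CPM in WT, a log2 fold change of 0.39 ± 0.04 (adjusted p = 8.88e-10). Tfb2m, the initiation factor, and Tefm, the elongation factor, did not pass (0.08 ± 0.07 and 0.01 ± 0.11). Tfb1m, which methylates the small-subunit rRNA, was lower (-0.53 ± 0.13). Of 16 genes of replication and the nucleoid, 9 were higher and 1 lower (median 0.22), among them the polymerase Polg (0.39), the helicase Twnk (0.44), the nucleoid-associated ATPase Atad3a (0.79), the protease Lonp1 (0.49) and, lower, the deoxyguanosine kinase Dguok (-0.28). Without FR1, 7 of these 16 were higher and 3 lower, and without WT3, 9 were higher and 2 lower.

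Of 22 genes of RNA processing and stability, 11 were higher, 4 lower and 7 not called (median 0.21). The background was again 34.6% of all tested genes called higher and 35.5% called lower (70.1% in either direction). Lrpprc, which stabilises mitochondrial mRNAs and promotes their polyadenylation, averaged 252 ± 4.6 CPM in FR and 155 ± 4.6 CPM in WT, a log2 fold change of 0.70 ± 0.03 (adjusted p = 2.12e-18). Slirp, its binding partner, went the other way, at 19.1 ± 0.7 CPM in FR and 25.9 ± 0.5 CPM in WT (-0.44 ± 0.06, adjusted p = 4.13e-07). Also higher were Grsf1 of the RNA granules (0.71), the tRNA end nuclease Elac2 (0.24), the degradosome helicase Supv3l1 (0.24) and, narrowly, the poly(A) polymerase Mtpap (0.14 ± 0.06, adjusted p = 0.036). Lower were Hsd17b10, a subunit of the mitochondrial RNase P (-0.88), and the oligoribonuclease Rexo2 (-0.31). The RNase P subunit Trmt10c (0.11), Fastkd5 (0.06), which takes part in processing ends without a tRNA, and the exonuclease Pnpt1 (0.22, adjusted p = 0.0541) did not pass.

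For the translation of these mRNAs, 18 of 22 tRNA synthetase genes were higher and 2 lower (median 0.27), with Pars2 (0.92) and Yars2 (0.63) higher and Rars2 (-0.90) and Gars (-0.17), which also serves the cytosol, lower. The background for all counts in this paragraph was 34.6% of all tested genes called higher and 35.5% called lower (70.1% in either direction). Of 14 rRNA modification and assembly genes, 7 were higher and 1 lower (median 0.17), with Mrm3 (0.58) and Dhx30 (0.51) higher and Mettl15 (-0.63) lower. Of 17 tRNA modification genes, 7 were higher and 3 lower (median 0.12), with Yrdc (0.54) and Nsun2 (0.48) higher and Osgepl1 (-0.74) and Nsun3 (-0.31) lower. The ribosomal proteins, 80 tested of 84, were split into 32 higher, 18 lower and 30 not called (median 0.06), with Mrps30 (0.67) and Mrpl37 (0.66) higher and Mrpl24 (-0.998) and Mrpl51 (-0.54) lower.

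Of the 77 tested nuclear genes listed as subunits of complexes I, III, IV and V, the partners of the members, 29 were higher and 24 lower. The background for all counts in this paragraph was 34.6% of all tested genes called higher and 35.5% called lower. The median log2 fold change of the 77 was 0.02 against 0.00 over all tested genes. Counted among them are Cox7a2l, which helps to join complexes III and IV, and the ATP synthase inhibitor Atpif1. For complex IV, 4 of 13 were higher and 5 lower (median 0.03), with Cox5a (0.55) and Cox7a2 (0.20) higher and Cox7a2l (-0.54) and Cox6a2 (-2.07) lower; Cox6a2, the muscle form, stood at only 1.92 CPM in FR and 8.0 CPM in WT. Its assembly factors were split evenly, with 7 of 19 higher and 7 lower, including Cox18 (0.98) and Coa7 (0.74) among the higher and Cox16 (-1.71) and Cox14 (-0.37) among the lower. For complex I, 15 of 37 were higher and 10 lower (median -0.02), with Ndufs1 (0.54) and Ndufab1 (0.47) higher and Ndufb10 (-0.48) and Ndufb3 (-0.46) lower. For complex V, 3 of 18 were higher and 8 lower (median -0.06), with Atp5o (0.17) and Atp5b (0.14) higher and Atp5j (-0.39) and Atp5g3 (-0.37) lower. For complex III, the partners of mt-Cytb, 7 of 9 were higher and 1 lower (median 0.45), with Uqcrc1 (0.55) and Uqcrc2 (0.45) higher and Uqcr11 (-0.30) lower. In complex II, which has no member here, 3 of 4 subunit genes were higher, with Sdhd (0.33) and Sdha (0.20) named by the rule, and Sdhc (-0.31) was lower.

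**Figure D5:**
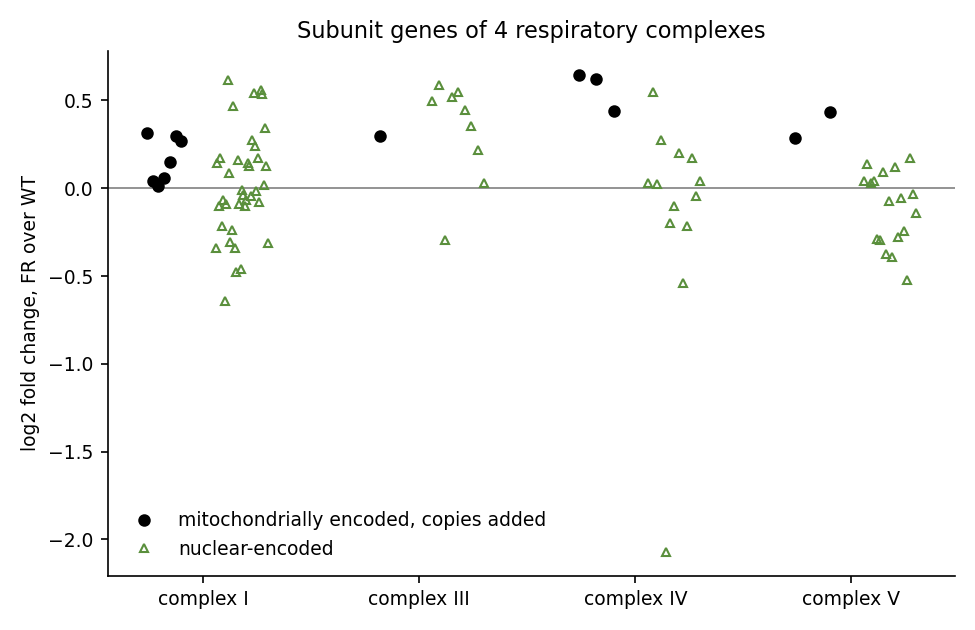
Log2 fold change of FR over WT (y axis) for the genes listed as subunits of complexes I, III, IV and V. Filled circles are mitochondrially encoded mRNAs (copies added). Open triangles are nuclear-encoded genes, with Cox7a2l and Atpif1 counted among them. Points are spread sideways for legibility. The circles lie between 0.01 and 0.65, while the triangles lie on both sides of 0, from -2.07 (Cox6a2) to 0.62; scaled to the mitochondrial mRNA pool, the circles other than those of mt-Co1, mt-Co2, mt-Co3 and mt-Atp6 lie below 0.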

How the data were processed

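Poly(A)-selected RNA of 3 FR and 3 WT libraries was sequenced as paired ends on an Illumina HiSeq, per the labels' protocols. The authors deposited expected counts per gene, made with fastp, HISAT and RSEM on GRCm39, per the submitters' processing notes (versions not given in the sources used here). Of the deposited values 85.9% were whole, and expected counts were rounded to whole numbers before testing. The 733 assembled loci without a name stayed in the tests, the deposited group means were not used, and 0 columns of samples were left unmapped. How RSEM shared reads among copies moves single rows, since identical stretches carry no information on their origin.

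Differences were fitted with edgeR 4.0.16 in R 4.3.3 (TMM scaling, filterByExpr, robust quasi-likelihood F-test, FR over WT, no covariate) on all 14889 genes that passed, with Benjamini-Hochberg adjustment of p over that whole set and a threshold of 0.05. A fold change is log2 of FR over WT, and CPM uses TMM-scaled library sizes (factors 0.995 to 1.01). Of the 37 members, 15 passed the filter. The common coefficient of variation was 3.25%. Shares and ratios were compared with exact two-sided permutation tests in scipy 1.17.1. Copies were found with blastn 2.17.0. The code was tested on simulated data. Alternatives were DESeq2 1.42.0, limma-voom (limma 3.58.1), other scalings and filters, a replicate block, joined reading frames, added copies and each library left out. Within a group, every pair of libraries differed beyond counting noise (2.34 to 3.37 times the chi-square expected from it), so none repeated the counts of another. This cannot tell separate cultures from libraries made from 1 culture.

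Sequences, gene order and copies came from GENCODE vM21, matched by gene ID for all 37 members with equal lengths. It is of another build than the files, so no coordinates are given. All members are named. From each list of nuclear genes the 2 called genes with the smallest adjusted p in each direction were named, with 14 genes of RNA handling and replication whatever their values. The members and lists were chosen with earlier results of these data known.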

Additional observations from a re-analysis of the deposited data

How the results depend on the processing

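The number of mitochondrial mRNAs called higher was 7 as deposited and 9 with the copies added, and none was called lower, under the scalings other than that to the pool, under both other filters and under DESeq2, limma-voom and joined frames within a range of 6 to 9. It was 6 to 7 as deposited and 9 to 11 with the copies added when each library was left out, with 11 without FR1, where mt-Atp8 and mt-Nd4l joined. Scaling to the mitochondrial mRNA pool left 1 higher and 7 lower as deposited, and 2 higher and 8 lower with the copies added, since it sets each member against the others. As deposited, log2 fold changes on that scale were -0.086 for mt-Nd1, -0.360 for mt-Nd2, -0.266 for mt-Co2, -0.12 for mt-Atp8, -0.238 for mt-Atp6, -0.352 for mt-Nd3, -0.354 for mt-Nd4l, -0.248 for mt-Nd4, -0.10 for mt-Nd5, -0.133 for mt-Nd6 and -0.103 for mt-Cytb. With the copies added they were -0.116 for mt-Nd1, -0.390 for mt-Nd2, -0.1501 for mt-Atp8, -0.417 for mt-Nd3, -0.370 for mt-Nd4l, -0.278 for mt-Nd4, -0.130 for mt-Nd5, -0.162 for mt-Nd6 and -0.133 for mt-Cytb.

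Among members that did not pass, leaving out 1 library gave log2 fold changes of -0.375 to 0.417 for mt-Co2, -0.071 to 0.131 for mt-Nd3, -0.152 to 0.202 for mt-Nd4l and 0.1395 to 0.4024 for mt-Atp8 as deposited, and of -0.0486 to 0.0555 for mt-Nd3 with the copies added (-0.0033 without WT3). The tRNA share differed by -9.85e-08 (without FR3) to 1.11e-05 percentage points, on 20 counts in all. mt-Co3 as deposited also lost its call without the filter on low counts (adjusted p = 0.0878) and under the pool scaling (adjusted p = 0.1). mt-Atp8 passed with limma-voom (adjusted p = 0.00831) and without the robust fit (adjusted p = 0.00495); the cause was not tested. Same-numbered libraries of FR and WT did not deviate together (correlations of -0.017, -0.004 and -0.028), so no pairing by number was seen. These values do not exclude a weak pairing, and the labels do not state one. With the number as a replicate block, 6 mRNAs were higher as deposited and 9 with the copies added, and mt-Co3 as deposited did not pass (1.61 ± 0.56, adjusted p = 0.124). In each list of nuclear genes the number called in either direction stayed within 1.5 times under the alternatives run for it, and so did the numbers higher and lower, except that of replication and nucleoid genes 1 was lower with all libraries, 3 without FR1 and 2 without WT3. At 20 counts in all, no difference in the tRNAs was detectable.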
